A study of Mus musculus with 20 samples.

Results

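The livers of mice given PPARa-M siRNA, 1 of the small interfering RNAs directed at Ppara in the study, were compared with the livers of mice given Ringer's vehicle. Of the 20 arrays in the series, 8 belong to the comparison, the 4 whose titles name PPARa-M siRNA and the 4 whose titles name the vehicle, and all 23493 probes were used. PPARa-M mice received 40 µg of the siRNA in a volume of Ringer's solution equal to 10% of body weight, forced quickly into a tail vein (hydrodynamic injection), and vehicle mice received the solution without siRNA. Livers were taken after 48 h. Cy3 and Cy5 labelled cRNA from each liver and from a pool of 4 vehicle livers was hybridized together on a custom mouse array, so the vehicle pool is the reference for every array. Strain, age and sex of the mice, and the meaning of the suffix M, are not given in the sources used here. The study text counts 8 vehicle profiles, of which 4 were analysed here. Groups given PPARa siRNA, SEAP-M control siRNA or GL3 control siRNA, each of 4 arrays, had the same dose and time. They were used to test where PPARa-M siRNA differed from another injected siRNA, and for counts against the same vehicle arrays. They also entered the limma fit, so the variance behind each limma p-value comes from the samples of all 5 groups.

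PPARα, the protein of Ppara, is a nuclear receptor that is activated by fatty acids and fibrate drugs and pairs with an RXR receptor on DNA. In liver it switches on genes for fatty acid uptake, mitochondrial and peroxisomal β-oxidation and the fasting response. A small interfering RNA is a short duplex whose guide strand directs the RNA interference complex to cut a matching mRNA. Duplexes can also lower partly matched mRNAs and can be seen by sensors of foreign RNA, which drive interferon-stimulated genes. Cholesterol synthesis, which is described at length here, is governed in liver by the SREBP-2 transcription factor, the product of Srebf2.

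Values are log2 ratios of a liver to the vehicle pool, obtained from the deposited log10 ratios, and values of 4 replicates are given in the order A, B, C, D. That a positive value means more RNA in the liver than in the pool is likely rather than stated, on the basis of the order of names in the array titles and of a negative Ppara ratio in all 4 PPARa-M livers, so the sign of Ppara is no independent check of the direction. PPARa-M replicates C and D were counted as 1 sample, although the study's methods give 4 animals per group, because they were more alike than other livers of a group over genes measured by concordant probes. Over 291 genes with a concordant pair of probes, they correlated at 0.973, whereas the 29 other pairs of arrays within a group reached at most 0.771. They differed by a median of 0.0203 on the log10 scale, close to the 0.0169 and 0.0116 by which both probes of a gene differed within those arrays, against 0.0522 to 0.105 in the 5 other PPARa-M pairs. Over all probes the contrast was smaller, with a correlation of 0.529, below the 0.638 of replicates A and B, and a median difference of 0.0274, the lowest of any pair but close to the 0.0283 of vehicle replicate C and SEAP-M replicate B. Whether C and D are 1 liver was not settled by these values, and n = 3 for PPARa-M siRNA rests on the merge, against n = 4 for vehicle. With C and D as separate samples 1604 probes passed in place of 1593, of which 1295 were shared. Values with C and D apart or left out are given for some results only, and other results change as well. Of the cell cycle genes, for example, 7 passed in the fit reported, 10 with C and D apart and 6 with both left out. Of the 15 named decreases 12 passed with both left out. The labels say nothing more on how replicates were made. Limma p-values measure the spread between samples within all 5 groups, whereas the exact permutation test uses the PPARa-M and vehicle samples alone. In 7 of the 8 arrays, all but PPARa-M replicate D, between 32 and 76 probes shared an identical ratio, which was 0.27 in PPARa-M replicate B and between -0.44 and -0.30 in the others. Transcripts abundant in liver sat at that ratio, 62 probes in at least 5 arrays, among them haptoglobin (Hp), Mup3 and Phyh. Of the 46 genes named by these probes 22 were on a list used here, and none of the 22 passed the test. In whole liver, fewer cells of a type and less RNA per cell cannot be told apart.

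At a Benjamini-Hochberg adjusted p under 0.05 in limma, 1593 probes, or 6.78% of all 23493, differed between PPARa-M siRNA and vehicle, 816 higher and 777 lower with the siRNA. More than 2-fold differences made up 138 of these, 94 higher and 44 lower. Averaged per gene, 473 genes (3.1% of 15252) were higher and 541 (3.55%) lower, with a median difference over all genes of -0.02. Against the same vehicle arrays, 32 probes passed for PPARa siRNA, 1 for SEAP-M control siRNA and 1 for GL3 control siRNA (1462, 1349 and 651 at an unadjusted p under 0.05, against 5630 for PPARa-M siRNA). Ratios were more widely spread in the PPARa-M arrays, with an interquartile range of 0.0735 to 0.124 on the log10 scale against 0.0459 to 0.0606 with vehicle, and the count of calls moved with the scaling of the arrays and with single livers. After quantile normalization 4 probes passed and after scaling the arrays to one interquartile range 0, and without PPARa-M replicate B 115, without vehicle replicate D 156 and without vehicle replicate A 496. A fit of the 8 arrays alone called 1 probe, that of Acss2. Without PPARa-M replicate A 890 passed, and without C and D together 3201. Each call named in the next paragraphs is therefore from the fit over all groups, and genes that also passed with every single replicate left out, and with C and D left out together, are named as such. The direction of the 1593 calls was kept in every one of these settings. Because the calls were selected for their differences in these same arrays, that is no independent support for them.

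**Figure D1:**
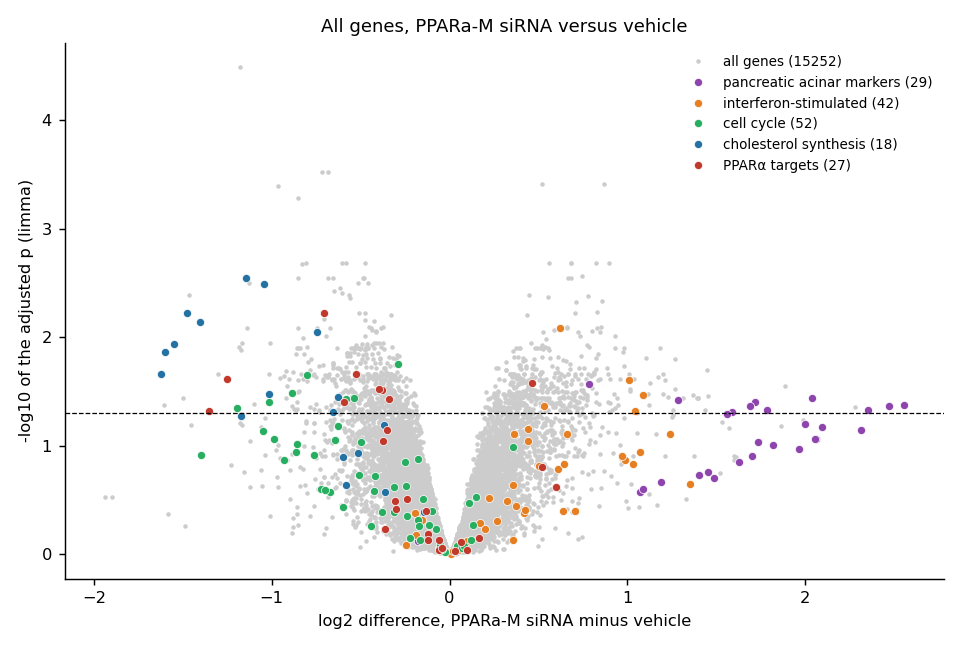
All 15252 genes, with the log2 difference of PPARa-M siRNA minus vehicle on the x axis and -log10 of the limma adjusted p on the y axis. Colours mark members of 5 gene lists, and the dashed line is an adjusted p of 0.05. Cholesterol synthesis genes lie on the left, where 11 of 18 pass, and pancreatic acinar markers on the right, where 10 of 29 pass.

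Ppara, the target of the siRNA, was lower in every PPARa-M liver than in any vehicle liver. As the mean of 4 probes it stood at -0.59, -1.05, -0.59 and -0.62 with PPARa-M siRNA and at 0.22, -0.11, -0.03 and 0.15 with vehicle. Replicate B was the lowest, and the groups did not overlap. The means were -0.75 ± 0.26 (SD, n = 3) and 0.06 ± 0.15 (SD, n = 4), a difference of -0.81 (SE 0.19, limma adjusted p = 0.0222) that left Ppara at 57.2% of the vehicle level. An exact two-sided permutation test gave p = 0.0571, the smallest that 3 samples against 4 allow. With C and D as separate samples, the exact two-sided permutation test gave p = 0.0286, the smallest that 4 samples against 4 allow. That second value holds only if C and D are separate livers, which was not settled. Each of the 4 probes passed by itself, with differences of -0.98, -0.82, -0.68 and -0.75. Without PPARa-M replicate B the difference was -0.65 (adjusted p = 0.145), without vehicle replicate A -0.75 (adjusted p = 0.0557) and without vehicle replicate D -0.78 (adjusted p = 0.0748). Ppara was also lower than with SEAP-M control siRNA, by -0.92 (adjusted p = 0.0224), and than with GL3 control siRNA, by -0.85 (adjusted p = 0.0186). Between the Ppara siRNAs it differed by -0.50, which did not pass (adjusted p = 0.103).

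Of the 16 measured genes of the PPAR family, their RXR partners and coactivators, 2 were lower and 0 higher, against 3.55% and 3.1% of all genes. The count of 2 was 0 without PPARa-M replicate B and 1 without vehicle replicate A or D. It was 4 with C and D apart or both left out. Beside Ppara, the call in the fit reported was Pparg, the receptor of fat cell differentiation. Pparg stood at -0.38, -0.47, -0.38 and -0.42 with PPARa-M siRNA and at -0.14, 0.05, -0.04 and 0.23 with vehicle. The PPARa-M livers were close together and all lower. The difference was -0.44 (SE 0.08, adjusted p = 0.00814) over the mean of 5 probes, and it also passed against SEAP-M control siRNA (-0.37, adjusted p = 0.0288) and against PPARa siRNA (-0.35, adjusted p = 0.013). Without PPARa-M replicate B it was -0.42 (adjusted p = 0.0547).

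**Figure D2:**
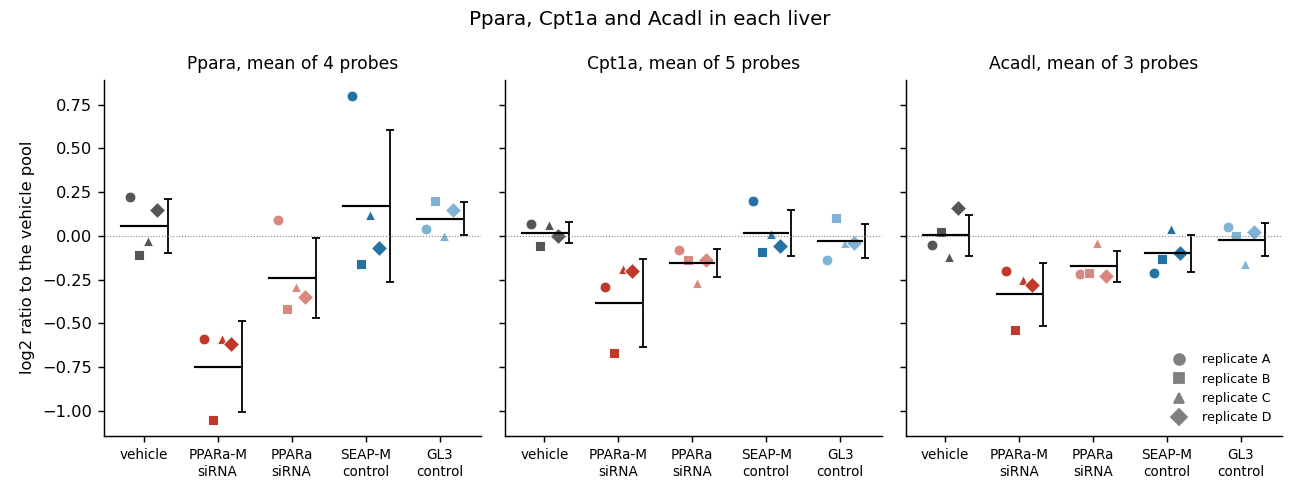
Log2 ratio to the vehicle pool of Ppara, Cpt1a and Acadl (means of 4, 5 and 3 probes) in each of the 20 livers, by group. Symbols are replicates, lines are group means and bars are SD, with PPARa-M replicates C and D counted once. All PPARa-M points for Ppara, from -1.05 to -0.59, lie below all vehicle points.

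Of 27 measured targets of PPARα, 8 were lower and 1 higher with PPARa-M siRNA (3.55% and 3.1% of all genes were), with a median difference of -0.24 against -0.02 over all genes. Vnn1, the pantetheinase that is a common readout of PPARα activity, was the firmest of them. It stood at -0.58, -0.82, -0.72 and -0.74 with PPARa-M siRNA and at 0.04, -0.02, -0.12 and 0.10 with vehicle. The groups were far apart relative to their spread. Vnn1 fell by 0.71 on the log2 scale (SE 0.12, adjusted p = 0.00601), passed with each replicate left out, and was lower than with SEAP-M control siRNA by 0.85 (-0.85, adjusted p = 0.00413). Against PPARa siRNA the difference of -0.38 did not pass (adjusted p = 0.0609).

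Angptl4, the fasting-induced inhibitor of lipoprotein lipase, had the largest of the 15 named decreases and, among these, the widest spread in the PPARa-M livers. The probe stood at -1.54, -2.84, -0.48 and -0.52 with PPARa-M siRNA and at 0.09, 0.17, 0.05 and -0.23 with vehicle. Replicates A and B were far below C and D, and all were below vehicle. It fell by 1.65 (SE 0.44, adjusted p = 0.0358), to 32% of the vehicle level, and over the mean of 8 probes by 1.35 (adjusted p = 0.0477). With PPARa siRNA the mean of probes ranged from -1.95 to -0.13. Both calls on Angptl4 were lost without any one vehicle replicate and without PPARa-M replicate A or B, with adjusted p of up to 0.297 and differences from -1.80 to -0.88 for the mean of probes.

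Lower targets of fatty acid oxidation differed less in size. Cpt1a, the gate for entry of fatty acids into mitochondria, was at 75.9% (difference -0.40, adjusted p = 0.03), although only 2 of its 5 probes passed alone. Acadl, an acyl-CoA dehydrogenase, was at 79% (adjusted p = 0.0368). Eci1 and Eci2, isomerases for unsaturated fatty acids, fell by 0.53 and 0.60 (adjusted p = 0.0215 and 0.0394), but Eci2 in replicates C and D, at 0.03 and 0.06, lay within the vehicle range. Ehhadh, the bifunctional enzyme of peroxisomal β-oxidation, stood at -0.21, -0.45, -0.38 and -0.47 against -0.03 to 0.05 with vehicle, a decrease of 0.38 (adjusted p = 0.0304). The count of 9 calls on PPARα targets was 1 without PPARa-M replicate B, 1 without vehicle replicate A, 2 without vehicle replicate D and 5 without vehicle replicate B, while the median stayed between -0.27 and -0.19 with any replicate left out.

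Other textbook targets did not pass. Cyp4a10 and Cyp4a14, the microsomal fatty acid ω-hydroxylases, differed by -0.36 and 0.60 (adjusted p = 0.58 and 0.241), Pdk4 by 0.10 (adjusted p = 0.905) and Fgf21 by 0.17 (adjusted p = 0.71). Slc22a5, the carnitine transporter, was the higher target, by 0.46 (adjusted p = 0.0266). It stood at 0.48, 0.91, 0.37 and 0.08 with PPARa-M siRNA and between 0.05 and 0.11 with vehicle, so that replicate D lay within the vehicle range, and the call was lost with C and D counted apart (adjusted p = 0.0529) and without PPARa-M replicate B or C or vehicle replicate A or D. Cyp4a12a, a male-biased ω-hydroxylase whose signal on an array can come from its near copy Cyp4a12b, fell by 1.25 over 3 probes (SE 0.30, adjusted p = 0.0243).

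Of 17 measured genes of mitochondrial fatty acid oxidation 4 were lower (3.55% of all genes) and 0 higher, Echs1 (-0.44, adjusted p = 0.0187), the enoyl-CoA hydratase, beside Cpt1a, Acadl and Eci1. The count was 0 without PPARa-M replicate B or vehicle replicate D and 1 without vehicle replicate A. Among 26 genes of peroxisomal β-oxidation and biogenesis 6 were lower and 0 higher, with a median of -0.30. Beside Ehhadh and Eci2 these were the peroxins Pex16 (-0.33, adjusted p = 0.0182), Pex19 (-0.44, adjusted p = 0.0312), Pex3 (-0.54, adjusted p = 0.0399) and Pex5 (-0.54, adjusted p = 0.043). Pex3, Pex16 and Pex19 bring membrane proteins to the peroxisome, and Pex5 is the receptor that imports its enzymes. Replicate B was the lowest PPARa-M liver for Pex3, Pex5 and Pex19, at -0.94, -0.87 and -0.82. Without replicate B 0 of these 26 genes passed, without vehicle replicate A or D 1, without vehicle replicate B 2 and without PPARa-M replicate A 3.

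Cholesterol synthesis held more calls than any other pathway list. Of 18 measured genes 11 were lower (3.55% of all genes were) and 0 higher, the median difference was -0.88, and all 18 differences were negative. Along the pathway from mevalonate, Mvk (-0.74), Pmvk (-1.05), Idi1 (-1.55), Fdps (-1.40), Fdft1 (-1.01), Sqle (-1.63), Lss (-0.66), Cyp51 (-1.48), Tm7sf2 (-1.15), Msmo1 (-1.60) and Sc5d (-0.63) passed, with adjusted p from 0.00281 for Tm7sf2 to 0.049 for Lss. Mvd (-1.17, adjusted p = 0.0535), Hsd17b7 (-0.60), Dhcr7 (-0.52), Ebp (-0.37), the sterol sensor Insig1 (-0.58), the sterol carrier Stard4 (-0.36) and Srebf2 itself (-0.15, adjusted p = 0.407) did not. In 11 of the 18 all PPARa-M livers lay below all vehicle livers, against 7.73% of all genes.

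Promoter sequences of Idi1 and Cyp51 are shown because both genes are among the largest decreases and because promoters of the pathway share short motifs. They are windows of 300 bases around the transcription start, mostly before it, from RefSeq in GRCm38.p6, on the plus strand at chr13:8885356-8885655 for Idi1 and on the minus strand at chr5:4104648-4104947 for Cyp51, 5′ to 3′ along the gene. Capitals mark the CCAAT box (CCAAT) and the GC box (GGGCGG), on either strand.
Idi1: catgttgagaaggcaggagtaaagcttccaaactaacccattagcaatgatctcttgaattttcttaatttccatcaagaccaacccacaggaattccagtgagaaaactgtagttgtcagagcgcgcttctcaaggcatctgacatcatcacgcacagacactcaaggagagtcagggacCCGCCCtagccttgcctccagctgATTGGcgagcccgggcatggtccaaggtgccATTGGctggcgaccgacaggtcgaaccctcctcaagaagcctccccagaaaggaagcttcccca
Cyp51: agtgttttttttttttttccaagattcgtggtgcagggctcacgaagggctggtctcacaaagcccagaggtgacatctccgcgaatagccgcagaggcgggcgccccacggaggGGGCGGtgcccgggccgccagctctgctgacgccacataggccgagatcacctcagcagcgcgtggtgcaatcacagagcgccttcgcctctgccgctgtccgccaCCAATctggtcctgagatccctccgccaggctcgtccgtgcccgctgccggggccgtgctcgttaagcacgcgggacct
A CCAAT box occurred in 14 of the 14 cholesterol synthesis genes with a promoter in the table, against 37.4% of all 32851 promoters, and a GC box in 13 of 14, against 35.7%. A gene was counted if any of its promoters held the motif, whereas the percentages count single promoters, so these are unlike measures. The sterol regulatory element searched as TCACNCCAC was in 0 of the 14 and in 1.24% of all promoters, which says only that these letters are not in this window. These are matches of letters, not measured binding.

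Idi1, the isopentenyl diphosphate isomerase, stood at -1.90, -1.76, -1.17 and -1.11 with PPARa-M siRNA and at 0.04, 0.18, -0.87 and 0.43 with vehicle. Cyp51, the lanosterol demethylase, stood at -1.78, -1.72, -1.01 and -1.02 and at 0.06, 0.10, -0.66 and 0.39. In both genes replicates A and B were lower than C and D, and vehicle replicate C was the lowest vehicle liver, with a small gap to the highest PPARa-M liver. Cyp51 fell to 35.9% of the vehicle level (SE 0.25, adjusted p = 0.00601) and passed with every replicate left out, as did Fdps, the farnesyl diphosphate synthase (SE 0.25, adjusted p = 0.00714), Pmvk, the phosphomevalonate kinase (SE 0.16, adjusted p = 0.0032), and Tm7sf2, a sterol reductase (SE 0.17, adjusted p = 0.00281). Idi1 fell to 34.2% (SE 0.30, adjusted p = 0.0116), and its call in the fit of genes was lost without PPARa-M replicate B (adjusted p = 0.0668) but with no other replicate left out. Sqle, the squalene epoxidase, was at 32.4% (SE 0.37, adjusted p = 0.0219), with vehicle replicate C at -0.91 level with PPARa-M replicate C. For Lss, the lanosterol synthase, the probe with the largest change differed by -1.38 and the mean of 3 probes by -0.66, so that its probes disagreed in size.

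The mean level of the 18 genes was -1.12, -0.96, -0.77 and -0.76 in the PPARa-M livers and 0.04, 0.07, -0.53 and 0.32 with vehicle. With PPARa siRNA it lay between -0.17 and 0.48, with SEAP-M control siRNA between -0.46 and -0.02 and with GL3 control siRNA between -0.12 and 0.42. PPARa-M siRNA thus gave the lowest levels of all groups, without overlap. Against PPARa siRNA, which has the same target gene, 17 of the 18 genes passed (7.88% of all genes did), with a median of -1.05. Against SEAP-M control siRNA 5 passed (1.18% of all genes), with a median of -0.62, among them Cyp51 (-1.44, adjusted p = 0.0133) and Pmvk (-0.85, adjusted p = 0.0194). The count of 11 against vehicle went to 4 without PPARa-M replicate B, 6 without vehicle replicate D and 7 without PPARa-M replicate A, with medians of -0.84, -0.74 and -0.85.

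**Figure D3:**
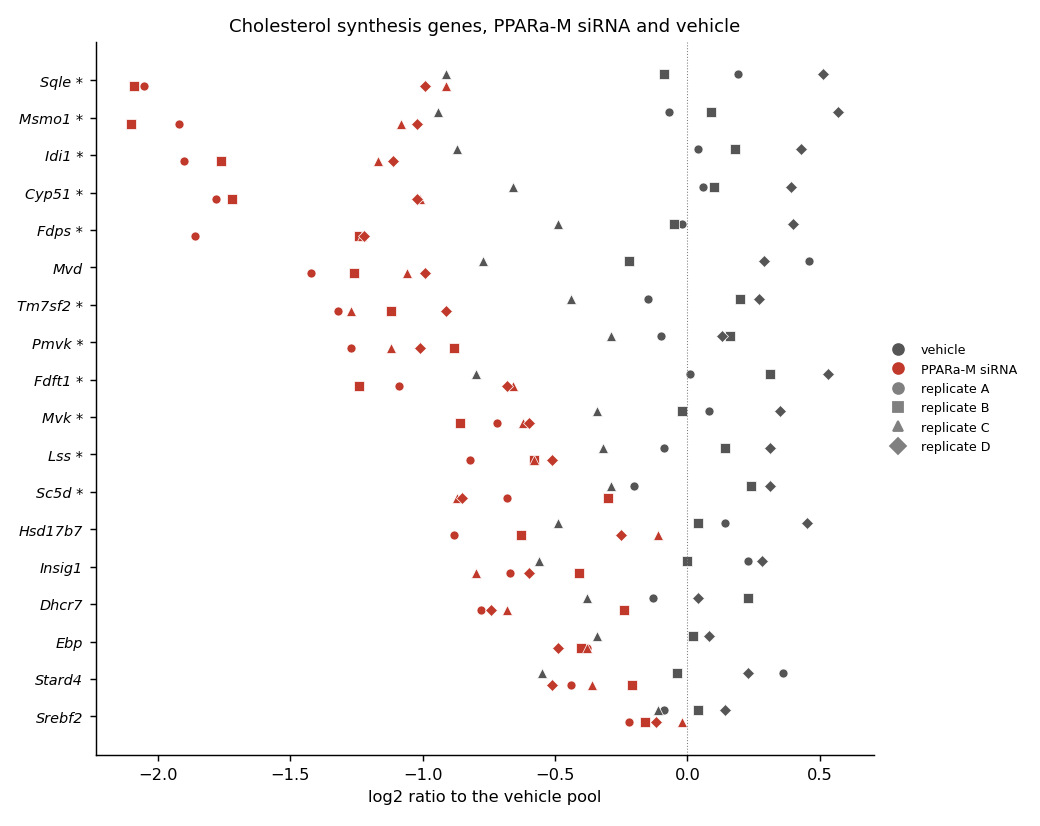
Log2 ratio to the vehicle pool of the 18 measured cholesterol synthesis genes in the 4 PPARa-M and the 4 vehicle livers, with symbols for replicates and an asterisk for an adjusted p under 0.05. All PPARa-M points lie below 0, and vehicle replicate C is the vehicle liver nearest to them in most genes, as in Sqle, where it stands at -0.91.

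Of 24 measured genes of fatty acid and triglyceride synthesis 4 were lower (3.55% of all genes) and 0 higher, with a median of -0.24. Acss2, which makes cytosolic acetyl-CoA from acetate, stood at -1.43, -1.44 and -1.44 in PPARa-M replicates A, C and D, slightly lower in B, and at -0.06, 0.06, -0.13 and 0.17 with vehicle. The PPARa-M livers were almost equal, and the difference was -1.46 (SE 0.24, adjusted p = 0.00406). Fads2, the Δ6 desaturase, stood at -0.50, -0.52, -0.84 and -0.79 against -0.06 to 0.04, a difference of -0.61 (SE 0.10, adjusted p = 0.00387). Elovl2 (-0.32, adjusted p = 0.0122) and Elovl5 (-0.80, adjusted p = 0.0253), elongases of polyunsaturated fatty acids, were the others. Acss2, Fads2 and Elovl2 passed with every replicate left out and against SEAP-M control siRNA (adjusted p = 0.021, 0.0086 and 0.0191).

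Genes of the de novo pathway itself gave no call. Fasn, the fatty acid synthase, was at -0.26, 0.94, -0.57 and -0.49 in the PPARa-M livers, with replicate B opposite to the others, and Acly, Acaca and Srebf1 differed by -0.06, 0.19 and 0.24 (adjusted p of 0.193 or more). Scd1, the stearoyl-CoA desaturase, was at -1.31, -0.73, -2.39 and -2.27 for the probe with the largest change and between -0.42 and 0.39 with vehicle, a difference of -1.45 (adjusted p = 0.0354). Over the mean of its probes the difference was -1.17 and did not pass (adjusted p = 0.0643).

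Aldh1a7, a liver aldehyde dehydrogenase close in sequence to the retinal dehydrogenase Aldh1a1, had the smallest p of all genes. It stood at -0.91, -1.02, -1.13 and -1.08 with PPARa-M siRNA and at 0.20, -0.16, 0.30 and 0.34 with vehicle. No gap within a group approached the gap between the groups. It fell by 1.18 (SE 0.10, adjusted p = 3.22e-05 in the fit of genes), to 44.1% of the vehicle level, and was lower than with SEAP-M control siRNA by 0.66 (-0.66, adjusted p = 0.00857) and than with PPARa siRNA (-0.84, adjusted p = 0.00038). In the groups given another siRNA all 12 livers lay between -0.48 and -0.07. Aldh1a7 passed with every replicate left out, with adjusted p of at most 0.000562. Of 14 measured genes of retinoic acid handling 3 were lower (1 without PPARa-M replicate A or B), against 3.55% of all genes, and 0 higher. The lower ones were Rdh16, a retinol dehydrogenase (-0.66, adjusted p = 0.0173), and Aldh1a2, a retinal dehydrogenase (-0.43, adjusted p = 0.0157), beside Aldh1a7.

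Among 30 measured phase II conjugation enzymes 4 were lower, against 3.55% of all genes, and 0 higher. The count was 2 without PPARa-M replicate A or vehicle replicate A or D. Gstm2 stood at -0.85, -0.61, -1.02 and -1.06 with PPARa-M siRNA and between -0.09 and 0.31 with vehicle, a difference of -0.86 (SE 0.13, adjusted p = 0.00281). Gstm5 stood at -0.43, -0.57, -0.62 and -0.65 and between -0.17 and 0.21, a difference of -0.61 (SE 0.09, adjusted p = 0.00208). Both are mu class glutathione transferases, whose similar sequences may share a probe, and both passed with every replicate left out and against SEAP-M control siRNA (adjusted p = 0.0258 and 0.0307). Gsta4, which clears 4-hydroxynonenal, fell by 0.59 (adjusted p = 0.0304), and Ugt2b1, a glucuronosyltransferase, by 0.92 (adjusted p = 0.0365).

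Sensors of foreign nucleic acid and interferon-stimulated genes had the highest medians of the 34 pathway lists, 0.33 and 0.40. Of 19 measured sensors 4 were higher and 0 lower, and of 42 interferon-stimulated genes 5 were higher and 0 lower (3.1% of all genes were higher). A gene could be on both lists, so these counts are not separate results. Promoters of Eif2ak2, Ifit1 and Isg15 are shown since they carry the interferon-stimulated response element, searched as GAAA, any pair of bases and GAAA, on either strand and set in capitals. They are the same RefSeq windows in GRCm38.p6, at chr17:78882523-78882822 (minus strand), chr19:34640639-34640938 (plus strand) and chr4:156200769-156201068 (minus strand).
Eif2ak2: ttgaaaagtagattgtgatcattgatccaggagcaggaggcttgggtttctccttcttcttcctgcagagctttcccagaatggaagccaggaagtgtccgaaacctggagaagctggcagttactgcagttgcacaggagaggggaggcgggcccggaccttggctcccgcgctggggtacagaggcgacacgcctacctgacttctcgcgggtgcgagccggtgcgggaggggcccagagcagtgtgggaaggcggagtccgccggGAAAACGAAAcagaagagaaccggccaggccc
Ifit1: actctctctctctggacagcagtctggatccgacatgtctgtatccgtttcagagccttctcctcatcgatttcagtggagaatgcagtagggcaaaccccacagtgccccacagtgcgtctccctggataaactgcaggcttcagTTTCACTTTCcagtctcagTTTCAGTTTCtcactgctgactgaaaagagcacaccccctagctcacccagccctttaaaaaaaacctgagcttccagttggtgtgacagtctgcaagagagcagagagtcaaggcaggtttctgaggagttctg
Isg15: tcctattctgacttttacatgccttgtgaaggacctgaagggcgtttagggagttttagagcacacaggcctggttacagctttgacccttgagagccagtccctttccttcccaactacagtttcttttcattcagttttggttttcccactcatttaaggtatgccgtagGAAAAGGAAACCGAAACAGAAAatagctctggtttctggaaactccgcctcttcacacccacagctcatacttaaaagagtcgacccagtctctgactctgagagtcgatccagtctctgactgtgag
The motif was in 16 of the 31 interferon-stimulated genes with a promoter in the table and in 3.44% of all promoters. Here too genes were counted by any of their promoters and the percentage by single promoters. Of the 5 interferon-stimulated genes that were higher, 2 had a promoter in the table and 1, Eif2ak2, held the motif.

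Eif2ak2 encodes PKR, the kinase that binds double-stranded RNA and stops translation. It stood at 0.50, 1.04, 0.58 and 0.52 with PPARa-M siRNA and at 0.02, 0.13, 0.16 and -0.01 with vehicle. All PPARa-M livers were higher, replicate B most. The increase was 0.62 (SE 0.11, adjusted p = 0.00826), passed with every replicate left out, and was also seen against SEAP-M control siRNA (0.55, adjusted p = 0.0253) and PPARa siRNA (0.79, adjusted p = 0.000844). Dhx58, the helicase LGP2, rose by 1.01 (adjusted p = 0.0248), Zc3hav1, the zinc finger antiviral protein, by 0.70 (adjusted p = 0.0215), Rtp4 by 1.09 (adjusted p = 0.0339), Parp14 by 1.04 (adjusted p = 0.0474) and Oasl2, of the oligoadenylate synthase family, by 0.53 (adjusted p = 0.043). For these the sample of replicates C and D was the higher one, as in Dhx58 at 0.76, 0.37, 1.78 and 1.88. Of the 19 sensors 1 passed without vehicle replicate D and 2 without PPARa-M replicate B. Of the 42 genes 1 passed without vehicle replicate D, 2 without PPARa-M replicate B or vehicle replicate B and 3 without vehicle replicate A or C.

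Interferon-stimulated genes were high in replicates C and D and near the vehicle level in A and B. The mean of the 42 genes was 0.11, -0.06, 1.29 and 1.29 in PPARa-M replicates A to D and between -0.10 and 0.13 with vehicle. In the 12 livers given another siRNA it lay between -0.27 and 0.23. Ifit1, an inhibitor of viral RNA translation, was at 0.36, -0.26, 4.19 and 4.07, Isg15, a ubiquitin-like modifier, at 0.60, -0.08, 2.85 and 2.63, Mx2 at 0.28, 0.21, 2.84 and 3.00, and the antiviral enzyme Rsad2 at -0.39, -0.83, 2.64 and 2.32. The chemokine gene Cxcl10 was at -1.11, -1.13, 1.44 and 1.51. With C and D counted once these genes did not pass, with adjusted p of 0.226 for Ifit1 and 0.115 for Isg15. With C and D left out the median of the list was -0.01, and with C and D counted as separate samples 11 of the 42 passed. The high levels were thus measured in the pair of arrays that was counted as 1 sample.

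Few other immune genes passed. Of 20 measured genes of antigen presentation 2 were lower, the class I genes H2-K1 (-0.66, adjusted p = 0.0241) and H2-D1 (-0.62, adjusted p = 0.0196), which are close copies, and 0 higher. Of 31 chemokines and cytokines Ccl4, a macrophage chemokine, was higher (0.65, adjusted p = 0.0319) and Il18 lower (-0.46, adjusted p = 0.0313). Over all genes 3.1% were higher and 3.55% lower. Without PPARa-M replicate B or vehicle replicate D 0 genes of either list passed. Of 28 acute phase genes 0 passed in limma (4 at an unadjusted p under 0.05), with a median of -0.34.

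**Figure D4:**
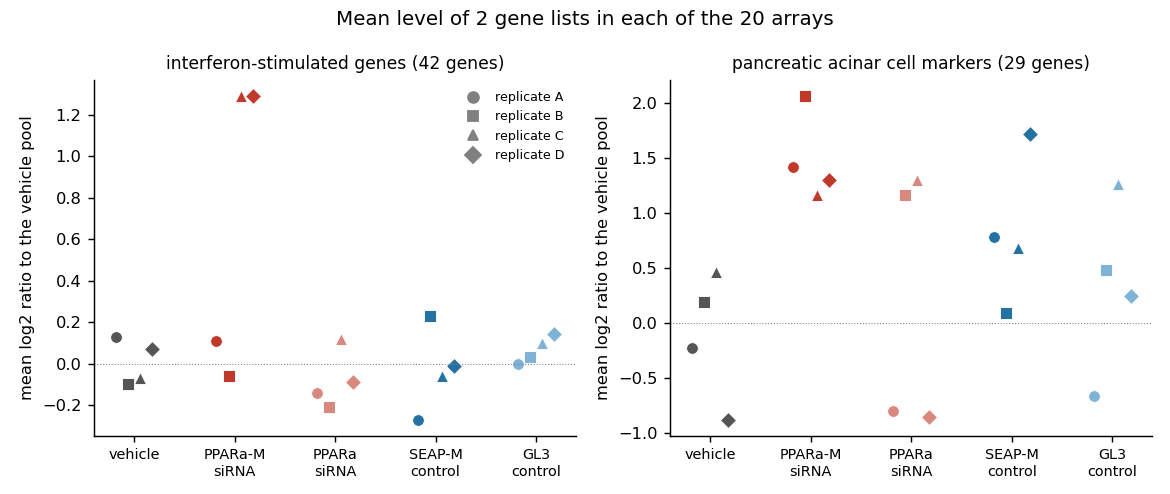
Mean log2 ratio to the vehicle pool over 42 interferon-stimulated genes (left) and 29 pancreatic acinar markers (right), 1 point for each of the 20 arrays, by group and with symbols for replicates. PPARa-M replicates C and D stand at 1.29 on the left, apart from all others, while on the right the PPARa-M arrays range from 1.16 to 2.06 and overlap with the other siRNA groups.

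Most of the largest increases were genes of the exocrine pancreas. Of the 15 named increases Amy2 (2.56), Klk1 (2.47), Gp2 (2.35), Klk1b26 (2.28), Clps (2.16), Spink1 (2.04), Cckar (2.02), Tmed11 (1.72), Dmbt1 (1.69) and Pla2g1b (1.59) led, with adjusted p from 0.0363 to 0.0488. Amy2 encodes pancreatic amylase, Clps colipase, Spink1 a trypsin inhibitor, Gp2 a zymogen granule protein and Pla2g1b the pancreatic phospholipase. Amy2 stood at 2.24, 3.35, 1.99 and 1.81 with PPARa-M siRNA and at -0.30, -0.28, 0.79 and -0.45 with vehicle, without overlap. A list of pancreatic acinar markers, added after these values were seen, had 29 measured genes. Of these 10 were higher (3.1% of all genes were) and 0 lower, with a median of 1.72. In 25 of the 29 the groups did not overlap (5.48% of all genes were higher without overlap). Its mean level was 1.41, 2.06, 1.16 and 1.30 in the PPARa-M arrays and -0.23, 0.19, 0.46 and -0.88 with vehicle. Made with these values known, the list is no independent evidence. An earlier list of muscle and other tissues, with acinar genes such as Cela1, Cela2a and Cpa1, gave 0 calls of 14 genes and a median of 0.37. Cela1 differed by 2.00, Cela2a by 1.63 and Cpa1 by 1.46 (adjusted p = 0.0633, 0.141 and 0.175).

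In the other siRNA groups the mean level of these markers varied between arrays, from -0.86 to 1.30 with PPARa siRNA, 0.09 to 1.71 with SEAP-M control siRNA and -0.67 to 1.26 with GL3 control siRNA. Against SEAP-M control siRNA 0 of the 29 passed, with a median of 0.81. Without vehicle replicate A or D, or PPARa-M replicate A or B, 0 of the 29 passed against vehicle, and without vehicle replicate B 4. The part of pancreatic tissue in these libraries was not tested.

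The other named increases were Ppp2r5a, Sostdc1, Taf15, 1810008N23Rik and Klk1b11. Whether any of them came from the exocrine pancreas was not tested. Ppp2r5a, a regulatory subunit of protein phosphatase 2A, stood at 0.96, 2.12 and 1.18 in PPARa-M replicates A, B and D, with C between D and B, and at 0.03, 0.12, 0.22 and -0.43 with vehicle. Replicate B was the highest, and the increase of 1.49 (SE 0.23, adjusted p = 0.00363) was the only 1 of the 15 that passed with every replicate left out. The probe also passed against SEAP-M control siRNA (1.18, adjusted p = 0.0198). The mean of 2 probes rose by 0.83 (adjusted p = 0.00589) and did not pass against SEAP-M control siRNA (0.56, adjusted p = 0.0593). Taf15, an RNA-binding protein, rose by 1.27 (adjusted p = 0.0164), from 0.58 to 2.02 in the PPARa-M livers and from -0.24 to 0.42 with vehicle. Sostdc1, an antagonist of BMP and WNT signals, rose by 1.39 (adjusted p = 0.0362), and Klk1b11 by 1.23.

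Of 16 measured RNA interference genes 3 were higher and 2 lower, against 3.1% and 3.55% of all genes. The count of 5 was 1 without PPARa-M replicate B or vehicle replicate D, 2 without vehicle replicate A and 3 without PPARa-M replicate A or vehicle replicate B. Tnrc6b, a GW182 protein that links Argonaute to mRNA decay, stood at 0.85, 1.01, 0.84 and 0.71 with PPARa-M siRNA and at 0.01, 0.15, 0.37 and -0.16 with vehicle. All PPARa-M livers were higher, and the increase of 0.79 (SE 0.15, adjusted p = 0.0122) also passed against SEAP-M control siRNA (0.70, adjusted p = 0.0328). Tnrc6c, of the same family, rose by 0.36 (adjusted p = 0.0441), and Dgcr8, the partner of Drosha, by 0.75 (adjusted p = 0.0319). Prkra, the PACT protein that binds Dicer and PKR, fell by 0.43 (SE 0.07, adjusted p = 0.00712) and passed with every replicate left out, and Eri1, an exonuclease, fell by 0.25 (adjusted p = 0.0281).

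Of 52 measured cell cycle genes 7 were lower (3.55% of all genes) and 0 higher, the median was -0.31 and 44 differences were negative. In 26 of the 52 all PPARa-M livers lay below all vehicle livers, against 7.73% of all genes. Ccnb2, the mitotic cyclin B2, stood at -1.12, -1.21, -1.41 and -1.49 with PPARa-M siRNA and at -0.24, -0.17, 0.49 and -0.36 with vehicle, a difference of -1.19 (SE 0.34, adjusted p = 0.045). Ect2 (-1.02, adjusted p = 0.039) acts in cytokinesis, Cenpa (-0.89, adjusted p = 0.0328) marks the centromere, Cdkn3 (-0.80, adjusted p = 0.0221) is a phosphatase of CDK2, Mad2l1 (-0.59, adjusted p = 0.0369) is a checkpoint protein, Ccne2 (-0.54, adjusted p = 0.036) is a cyclin E and Foxm1 (-0.29, adjusted p = 0.0176) is the factor that drives mitotic genes. Cenpm, a centromere protein outside the list, fell by 1.18 (adjusted p = 0.0129). Vehicle replicate C was the highest vehicle liver, with a mean level of 0.32 over the list against -0.16 to -0.13 in the other vehicle livers, and 2 of the 52 genes passed without it, 2 without PPARa-M replicate A and 3 without vehicle replicate A. The PPARa-M livers stood at -0.34, -0.34, -0.60 and -0.59. Without PPARa-M replicate B or vehicle replicate D 0 passed, with medians of -0.43 and -0.36.

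Liver genes that differ between the sexes showed a lower median for the male-biased set, -0.53 over 15 measured genes, of which 4 were lower (3.55% of all genes) and 0 higher. The count was 0 without PPARa-M replicate B or vehicle replicate D and 1 without PPARa-M replicate A or vehicle replicate A. Nudt7, a peroxisomal CoA hydrolase, stood at -0.69, -1.16, -1.42 and -1.42 with PPARa-M siRNA and at 0.61, -0.55, 0.01 and 0.25 with vehicle, a difference of -1.17 (SE 0.24, adjusted p = 0.0131). Cyp4a12a, Ugt2b1 and Cyp2d9 (-0.53, adjusted p = 0.0435) were the others, and vehicle replicate A was the highest vehicle liver for Nudt7, Cyp4a12a and Ugt2b1. Of 18 measured female-biased genes Fmo2, a monooxygenase, was higher (0.51, adjusted p = 0.0248) and Cyp3a16 lower (-0.56, adjusted p = 0.0453).

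The study text names genes as mediating liver hypertrophy, of which 13 were measured. Among them Nr1i3, the xenobiotic receptor CAR, was higher (0.60, adjusted p = 0.0441), and Pitrm1, a mitochondrial peptidase (-0.56, adjusted p = 0.0169), and Pex19 were lower. Over all genes 3.1% were higher and 3.55% lower. The count of 3 was 0 without PPARa-M replicate B or vehicle replicate D. Cdk1, the mitotic kinase, differed by -0.42 (adjusted p = 0.188), Acadm, the medium-chain acyl-CoA dehydrogenase, by -0.12 (adjusted p = 0.642) and Apoa4 by 0.08 (adjusted p = 0.881). Pck1, the gluconeogenic enzyme, stood at -0.36, -0.51, 1.33 and 1.63 with PPARa-M siRNA and between -0.39 and -0.28 with vehicle, so that only the sample of C and D was high (difference 0.52, adjusted p = 0.351). The list was chosen by the study with these livers among its data and is no independent evidence.

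In glucose metabolism 2 of 22 genes were higher and 2 lower, against 3.1% and 3.55% of all genes. The count of 4 was 0 without PPARa-M replicate B or vehicle replicate D. It was 1 without PPARa-M replicate A or vehicle replicate A. Slc2a4, the insulin-regulated glucose transporter, rose by 0.89 (adjusted p = 0.0215) and Pfkl, the liver phosphofructokinase, by 0.31 (adjusted p = 0.0496), whereas Slc2a2, the main liver glucose transporter, fell by 0.59 (adjusted p = 0.0241) and Pcx, pyruvate carboxylase, by 0.37 (adjusted p = 0.0449). In the urea cycle, neighbouring enzymes went opposite ways, with Ass1 at 0.00, -0.30, 0.20 and 0.21 against 0.36 to 0.53 with vehicle (difference -0.47, adjusted p = 0.0189) and Asl higher (0.36, adjusted p = 0.0397). All 12 livers given another siRNA had Ass1 between -0.44 and -0.10. Ass1 was also lower than vehicle with SEAP-M control siRNA (-0.69, adjusted p = 0.0196), GL3 control siRNA (-0.69, adjusted p = 0.0181) and PPARa siRNA (-0.68, adjusted p = 0.0125). The decrease in Ass1 was thus not particular to PPARa-M siRNA, which did not differ from SEAP-M control siRNA beyond the test (0.22, adjusted p = 0.271). Hspb1, a small heat shock protein, rose by 0.98 (adjusted p = 0.0124) as 1 of 15 heat shock genes. Dusp1, an immediate-early phosphatase, rose by 1.11 (adjusted p = 0.0334) to between 0.24 and 1.65, and lay between 1.19 and 1.73 with PPARa siRNA. Akr1d1, a bile acid reductase, fell by 0.71 (adjusted p = 0.0179), F11, coagulation factor XI, by 0.66 (adjusted p = 0.018), and the clock gene Nr1d2 by 0.58 (adjusted p = 0.0186). Lists of the unfolded protein response, NRF2 and metal response, p53 targets, iron handling and proteasome gave 0 calls in limma (4, 0, 2, 4 and 12 genes at an unadjusted p under 0.05). Of 51 oxidative phosphorylation subunits 2 were lower and 0 higher, and of 49 ribosomal proteins 2 were lower and 1 higher, against 3.55% and 3.1% of all genes.

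**Figure D5:**
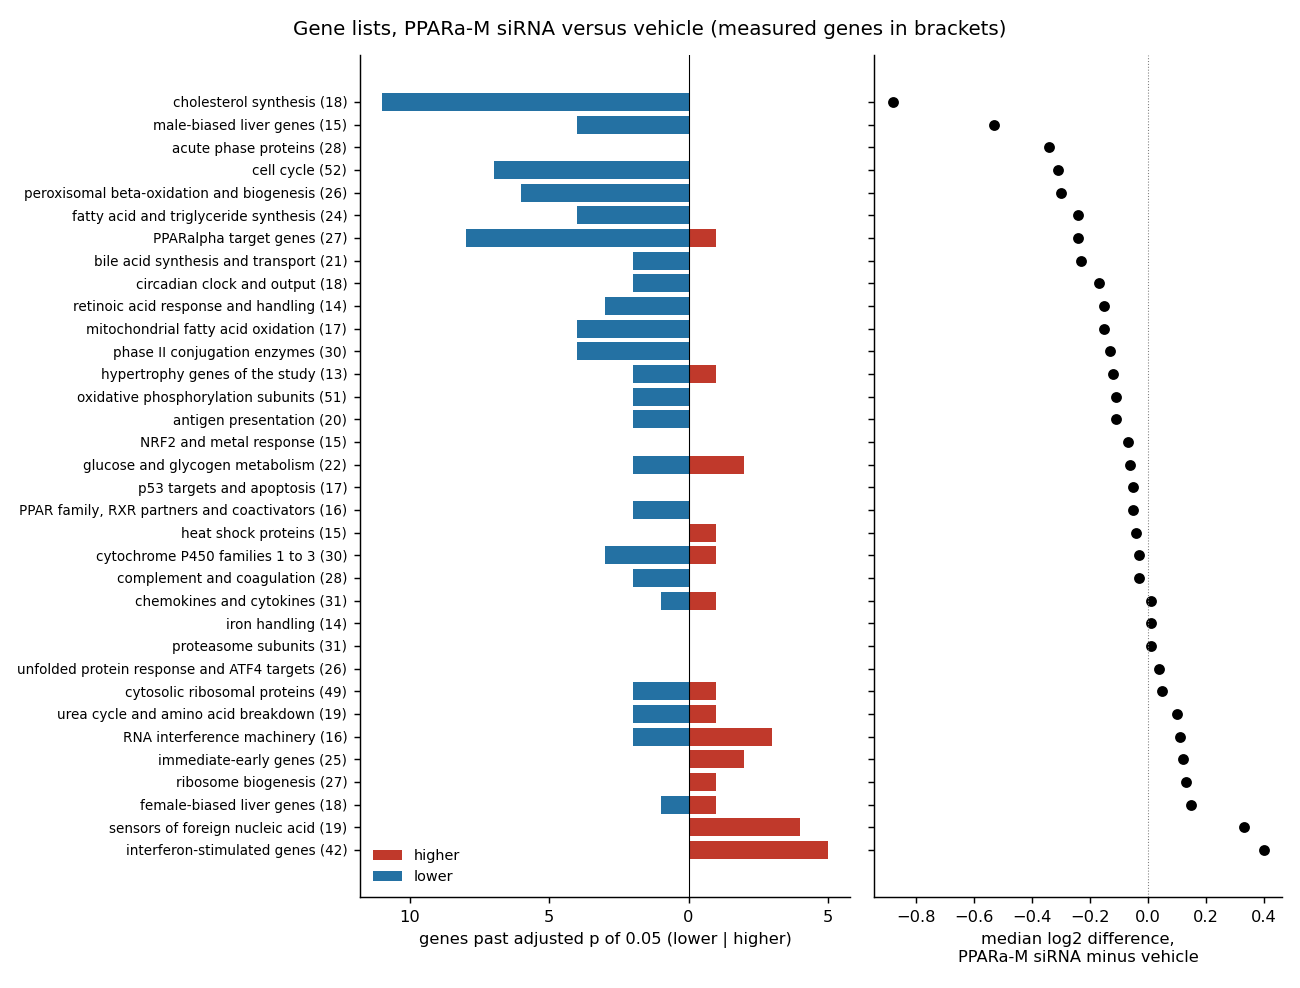
Left, number of genes of each of 34 lists that were higher or lower with PPARa-M siRNA at an adjusted p under 0.05, with the number of measured genes in brackets. Right, the median log2 difference of each list, which runs from -0.88 for cholesterol synthesis to 0.40 for interferon-stimulated genes.

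Whether hepatocyte markers were present at the level of liver could not be checked, since ratios to a liver pool give no level. Among 14 measured hepatocyte markers Apob, the main apolipoprotein of VLDL, was higher (0.62, adjusted p = 0.036) and 0 were lower, with a median of 0.14. In lists of other cells, Cldn4 was the 1 higher gene of 11 for bile duct cells (0.48, adjusted p = 0.0124). Flt1 and Tie1 were the 2 higher of 15 for endothelium (0.58 and 0.45, adjusted p = 0.0183 and 0.0343), where the median was 0.10 and 5 differences were negative. Alas2 was the 1 lower of 11 for erythroid cells (-0.62, adjusted p = 0.0461). Over all genes 3.1% were higher and 3.55% lower. Without PPARa-M replicate B 0 genes of these lists passed, and without vehicle replicate D only 1, of bile duct cells. Markers of Kupffer cells, neutrophils, lymphocytes, stellate cells and platelets gave 0 calls of 16, 13, 18, 17 and 6 genes (2, 0, 2, 3 and 0 at an unadjusted p under 0.05), with medians between -0.08 and 0.27. Whether cell content has a part in the other results was not tested.

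Tested directly against SEAP-M control siRNA, which shares the suffix, PPARa-M siRNA differed in 180 genes (61 higher and 119 lower). Against GL3 control siRNA it differed in 1004 genes and against PPARa siRNA in 1202. Named genes whose mean of probes passed against vehicle, with every replicate left out, and against SEAP-M control siRNA were Aldh1a7, Cyp51, Fdps, Pmvk, Acss2, Fads2, Elovl2, Gstm2, Gstm5, Vnn1, Prkra and Eif2ak2. Tm7sf2 passed with every replicate left out but not against SEAP-M control siRNA (-0.46, adjusted p = 0.176), where its level lay between -0.86 and -0.45.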

How the data were processed

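Livers were profiled on 2-colour oligonucleotide arrays of 23493 probes, against a pool of vehicle livers. The authors deposited log10 ratios for each array. The normalization and the direction of these log10 values are not given in the sources used here, and 40 values lie at the limit of 2 or -2. They were multiplied to the log2 scale and not normalized again. Genes were named from the platform annotation (18790 probes with 1 symbol, 65 with several and 4638 with none), and probes of a gene were averaged, giving 15252 genes. No low-signal filter was possible, as intensities were not used here, and the number of arrays limits the precision.

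All 5 groups were fitted together in limma 3.58.1 (R 4.3.3) with lmFit and eBayes, without covariates, and p-values were adjusted by Benjamini-Hochberg over all probes or all genes. The plan had PPARa-M replicates C and D as separate samples, and they were averaged after the check described above. The fit was tested on simulated data with independent noise of the same spread in all groups. That test cannot show how the fit handles the wider spread of the PPARa-M arrays. Exact permutation tests used scipy 1.17.1. Replicate letters were not used as pairs in the fit reported. Between PPARa-M siRNA and vehicle, deviations of arrays with the same letter correlated at -0.086, -0.008, -0.102 and 0.116. Whether arrays with the same letter are alike in the other groups was not tested.

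Named are Ppara, Cpt1a and Acadl, the 15 largest increases and the 15 largest decreases among called probes without overlap between the groups, from each list the genes with the lowest p, at most 4, and genes the study text links to hypertrophy. Other genes were chosen after their values were seen. The comparison and the 44 gene lists were chosen with earlier results of these data known, and lists of pancreatic acinar and skeletal muscle markers were added later (of 16 skeletal muscle genes 0 were higher and 1 lower). Motifs were searched in 32851 RefSeq promoters. Alternatives were other scalings, array weights, robust moderation, a replicate block, the 8 arrays alone, other thresholds and each replicate left out.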

Additional observations from a re-analysis of the deposited data

Results flagged for a closer look

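In 4 of 79 results tested, 1 vehicle liver stood apart from the other 3 by Dixon's criterion, and chance alone marks about 1 in 20 groups. Amy2, pancreatic amylase, was at 0.79 in vehicle replicate C and between -0.45 and -0.28 in the other vehicle livers. The mean level of the cell cycle list was 0.32 in vehicle replicate C and between -0.16 and -0.13 in the others. Rab30, a small GTPase, was at -0.21 in vehicle replicate C and between 0.07 and 0.11 in the others, whereas the PPARa-M livers stood at -1.53, -1.96, -0.42 and -0.30. Sostdc1 was at -0.63 in vehicle replicate D and between 0.11 and 0.18 in the others. Their causes were not tested.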

How the results depend on the processing

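Against 1593 probes in the fit reported, 1598 passed with arrays centred on their median, 1581 with robust moderation, 4 after quantile normalization, 0 with arrays scaled to one interquartile range, 4100 with array quality weights, 1 in a fit of the 8 arrays alone, 1014 as genes, 605 with a fold change over 1.5 as well and 111 at an adjusted p under 0.01. With the replicate block 1056 passed, among them 3 of the 15 named increases and 12 of the 15 named decreases. Pairing by letter was checked only between PPARa-M siRNA and vehicle. Leaving out 1 replicate gave 115 to 3201 probes, the lowest without PPARa-M replicate B and the highest without C and D, a setting chosen after seeing the data. Against 89 genes on pathway lists, 1 passed after quantile normalization, 1 with one interquartile range, 1 in the 8 arrays alone and 183 with array weights, and 16 to 126 with a replicate left out. Ppara was -0.65 after quantile normalization (adjusted p = 0.244), -0.57 with one interquartile range (adjusted p = 0.242) and -0.81 in the 8 arrays alone (adjusted p = 0.0903), none of which passed in limma, and -0.89 to -0.65 with a replicate left out. The causes were not tested.

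Among named genes, signs turned in 6 that did not pass. The median of interferon-stimulated genes went from 0.40 to -0.01 without C and D, and other list medians that changed sign lay between -0.08 and 0.10 in the fit reported. Apoa4 was -0.01 with array weights, Fam136a 0.01 after quantile normalization and Lyz2 0.01 with array weights. With replicates left out Acadm ranged from -0.20 to 0.03, Apoa4 from -0.08 to 0.19, Fam136a from -0.12 to 0.03, Pck1 from -0.12 to 0.88 and Pf4 from -0.01 to 0.24.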
